A study of Sus scrofa with 30 samples.

Results

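The trophectoderm is the outer epithelium of the blastocyst, and its identity is set by a small circuit of transcription factors. The set described here was chosen by name and holds 10 of them: CDX2, GATA2, GATA3, TFAP2A, TFAP2C, KLF5, ELF3, ELF5, DLX3 and HAND1. All 10 were found by NCBI gene identifier among the 13103 genes of the count table of all embryos, and none was left out for its values. The set was chosen with earlier results of these data known. RNA was sequenced from 30 single pig embryos, 5 female and 5 male on each of Days 8, 10 and 12, and the deposited values are read counts per gene. The interval covers the growth of the spherical blastocyst and the start of elongation, when the pig trophectoderm turns into a long filament.

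CDX2, GATA2, GATA3, TFAP2A and TFAP2C are DNA-binding factors that are switched on early in the outer cells and keep the epithelial program running. KLF5, ELF3 and ELF5 act in many epithelia, and DLX3 and HAND1 are needed for the later placental trophoblast in the mouse. In the pig the trophectoderm remains the outer layer of the conceptus through elongation and attaches to the uterine epithelium, with no invasive trophoblast.

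The Day 8 embryos, the Day 10 embryos and the Day 12 embryos were each 5 female and 5 male embryos, and no treatment set the groups apart. The dams were German Landrace × Pietrain gilts, 4 for each day, whose cycles were synchronized with hormones and which were all inseminated with semen of a single boar. By the study's methods a gilt gave at least 1 female and 1 male embryo of its day, so embryos of both sexes share litters. The gilt of each embryo is not in the labels, so litter could not enter a test, the sexes were tested as if the embryos were independent, and day and litter cannot be told apart. Each library came from a whole embryo, with embryonic disc, hypoblast and trophectoderm together. In such samples fewer cells of a type and less RNA per cell cannot be told apart. Single embryos are named by day, sex (f or m) and number. Library totals ran from 6068212 counts (embryo d12_f_245) to 34002508 counts. The level of a gene is given as counts per 1e6 counts (CPM) after TMM scaling.

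The trophectoderm label was checked with 29 measured genes of that epithelium, among them keratins, junction proteins and ion and water transporters. Their summed level was 31665 to 39363 CPM on Day 8, 51621 to 71426 CPM on Day 10 and 26924 to 56694 CPM on Day 12. A few genes made up much of it, KRT8 with a mean of 12248, 24502 and 10225 CPM on these days, KRT18 with 10075, 16629 and 3585 CPM, and on Day 12 PLET1 with 11273 CPM, so that the sum speaks mostly of these. Summed over 14 epiblast markers the level was 629 to 808 CPM, 830 to 1781 CPM and 662 to 1194 CPM, and 6 of the 14 stood at 3 counts or fewer in every Day 12 embryo, which held for none of them on Day 8 or Day 10. From Day 10 to Day 12, 2 of the 14 rose and 9 fell by the limits given below, against 14.9% and 8.39% of all genes. Their median log2 fold change was -3.03, or -0.99 with the genes at the floor set at their bound. The sum rested on TDGF1 on Day 10 (mean 685 CPM) and on DNMT3B on Day 12 (751 CPM). Summed over 13 markers of hypoblast and its derivatives the level was 1316 to 2472 CPM, 1217 to 2327 CPM and 2963 to 8850 CPM. APOA1 (mean 637, 938 and 2551 CPM), COL4A1 (327, 328 and 1232 CPM) and LAMA1 (273, 236 and 877 CPM) made up much of that sum. From Day 8 to Day 12, 9 of the 13 rose and 2 fell by the same limits, against 22% and 10.4% of all genes. GATA6 went from a mean of 142 CPM on Day 8 to 55.5 and 44.5 CPM, and RSPO3 from 6.93 to 1.08 and 0.386 CPM. Summed over 5 mesoderm markers the level was 28.6 to 52.2 CPM, 37.4 to 53.3 CPM and 37.1 to 158 CPM. Of 11 listed maternal markers 4 were in the table and 7 were not, among them SAL1, UTMP, PTPRC and CD14. UPTI was at a mean of 310, 896 and 4053 CPM on Days 8, 10 and 12. HBB of the blood, MUC1 and ACP5 were at 0.0139, 0.214 and 0.509 CPM on Day 8. On Day 12 these 3 were at 1.69, 6.01 and 4.82 CPM. Whether the UPTI reads came from maternal material was not tested. The part of these shifts in the results below was not tested.

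The limits of the study's methods were used to call a differentially expressed gene (DEG) between days, a log2 fold change beyond 1 in either direction at an FDR under 0.001. From Day 8 to Day 10, HAND1 and ELF5 rose and no member fell, so that 2 of 10 were DEG against 14.1% of all genes, 9.88% higher and 4.2% lower. From Day 10 to Day 12, HAND1, GATA3 and TFAP2A rose and CDX2 and KLF5 fell, so that 5 of 10 were DEG against 23.3% of all genes, 14.9% higher and 8.39% lower. Across the whole interval from Day 8 to Day 12, HAND1, GATA3 and ELF5 rose and CDX2 and KLF5 fell, 5 of 10 against 32.5%, 22% higher and 10.4% lower. At an FDR under 0.05 with no fold limit 6, 6 and 8 of 10 members passed in the same comparisons, against 56.1%, 59.7% and 73.3% of all genes. GATA2, TFAP2C, ELF3 and DLX3 did not meet the limits for a DEG in any of the comparisons. The count of 0 members that fell from Day 8 to Day 10 was also 0 with DESeq2 and with the robust GLM of edgeR, while 2 members, GATA2 and TFAP2A, had lower values at an unadjusted p under 0.05. The median log2 fold change of the members was 0.07, 0.06 and 0.48 in these comparisons, and that of all genes was 0.03, 0.04 and 0.09. The day comparisons share their embryos and are not independent of each other.

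**Figure D1:**
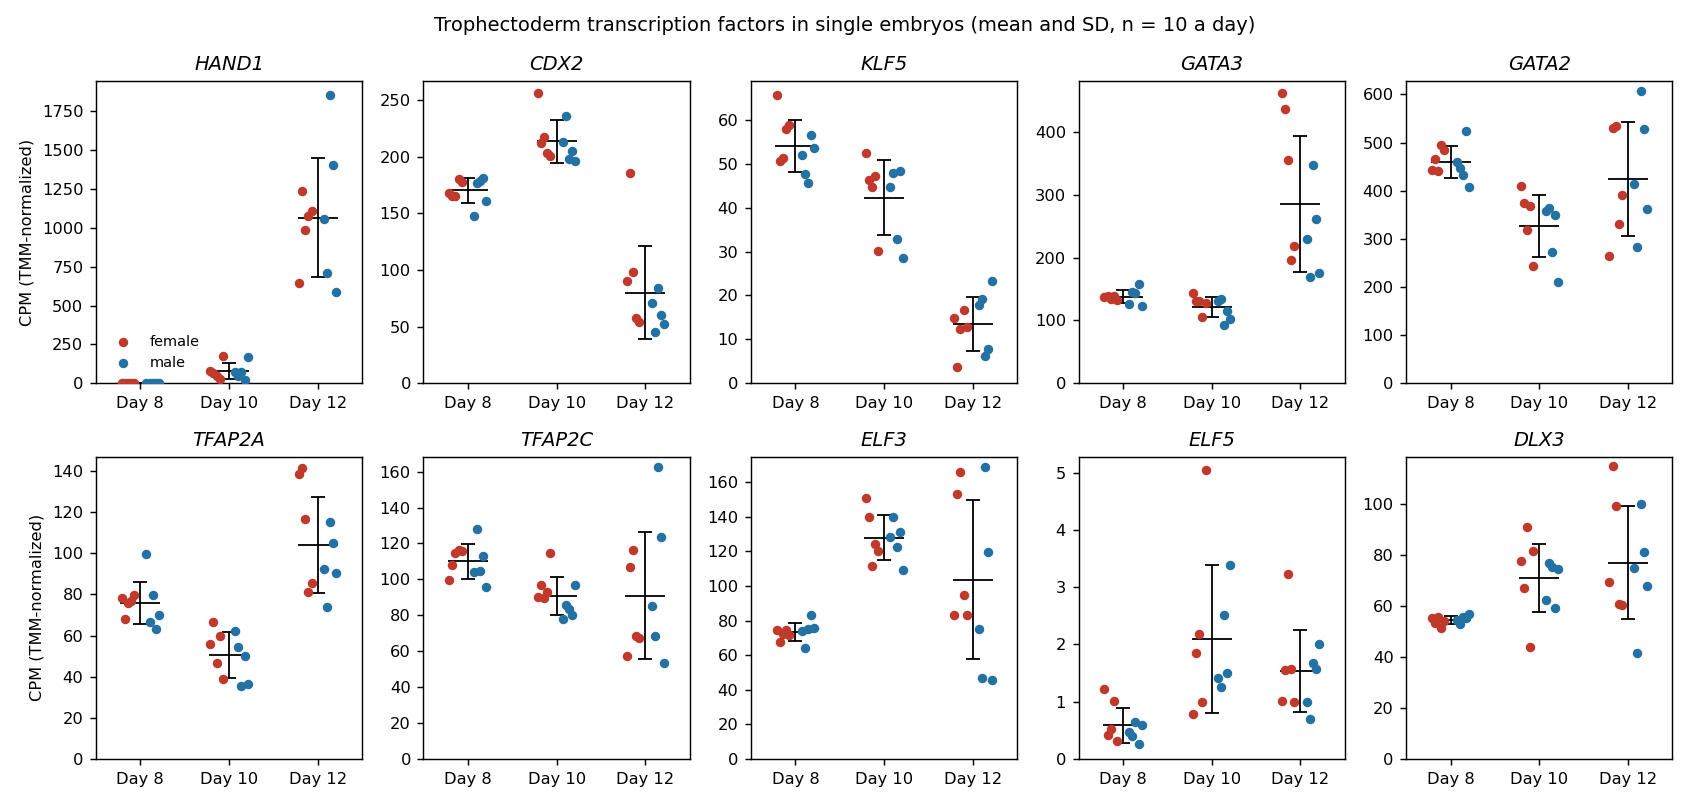
Level of each member in CPM (vertical, linear axes from 0) by day, with 1 point an embryo coloured by sex and black bars for the mean and SD of 10 embryos. HAND1 lies near 0 on Day 8 and at 584 CPM or more in every Day 12 embryo, CDX2 and KLF5 are lower on Day 12, and the points of most members lie farther apart on Day 12 than on Day 8.

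HAND1 is a basic helix-loop-helix factor that drives the differentiation of trophoblast giant cells in the mouse and also acts in extraembryonic mesoderm and heart. It is annotated on chromosome 16 at 68679977 to 68683346 of Sscrofa11.1. On Day 8 no read of HAND1 was counted in 7 of 10 embryos, 9 of 10 were at 3 counts or fewer, and embryo d08_m_133 held 9 of the 12 counts of the day, or 0.464 CPM. The summed counts of Day 8 correspond to 0.0519 CPM, with an exact Poisson 95% interval of 0.0268 to 0.0907 CPM that covers counting error only. On Day 10 the lowest, median and highest level was 22.7, 66.0 and 175 CPM. On Day 12 it was 584, 1064 and 1852 CPM.

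No day overlapped with another. The lowest Day 10 embryo was 48.9-fold above the highest Day 8 embryo, and the lowest Day 12 embryo was 3.33-fold above the highest Day 10 embryo. The log2 fold change of HAND1 was 10.37 (SE 0.57, FDR 1.99e-15, edgeR quasi-likelihood test with Benjamini-Hochberg adjustment, n = 10 per day) from Day 8 to Day 10, a size that depends on the small count the model adds where Day 8 embryos hold no reads. It was 11.93 without d08_m_133 and 11.87 with the robust GLM of edgeR. The log2 fold change was 3.79 (SE 0.35, FDR 6.94e-11) from Day 10 to Day 12, when the mean went from 77.1 ± 52.6 to 1065 ± 381 CPM (SD), a 13.8-fold difference. Among the Day 10 embryos, d10_f_454 (175 CPM) and d10_m_453 (166 CPM) stood above the other 8, which ended at 78.1 CPM, and the highest was 7.73-fold above the lowest. On Day 12 that ratio was 3.17.

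CDX2, the caudal-type homeobox factor that opens the trophectoderm program in the mouse blastocyst, lies on chromosome 11 at 5339727 to 5346081. Its lowest, median and highest level was 148, 173 and 181 CPM on Day 8, 196, 208 and 256 CPM on Day 10 and 45.3, 65.7 and 186 CPM on Day 12. All Day 10 embryos were above all Day 8 embryos, yet the log2 fold change of 0.33 (SE 0.16, FDR 0.0852, edgeR quasi-likelihood test) did not pass the test. The fall from Day 10 to Day 12 was -1.42 (SE 0.17, FDR 1.02e-08) on the log2 scale, with no overlap between the days. Against Day 8 it was -1.09 (SE 0.16, FDR 6.90e-07), and 9 of 10 Day 12 embryos lay below every Day 8 embryo. The exception was embryo d12_f_271, which kept 186 CPM of CDX2 while the other 9 Day 12 embryos ended at 98.1 CPM.

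KLF5 is a zinc finger factor that is needed in the mouse for the trophectoderm and for the early epiblast, and it lies on chromosome 11 at 45370009 to 45386673. Its lowest, median and highest level was 45.7, 52.9 and 65.8 CPM on Day 8, 28.5, 45.5 and 52.4 CPM on Day 10 and 3.72, 13.8 and 23.3 CPM on Day 12. Between Days 8 and 10 the log2 fold change was -0.35 (SE 0.20, FDR 0.133). KLF5 fell from Day 10 to Day 12 by 1.65 on the log2 scale (SE 0.21, FDR 4.17e-08) and the log2 fold change from Day 8 to Day 12 was -2.002 (SE 0.21, FDR 6.43e-10). Every Day 12 embryo was below every earlier one. The lowest Day 12 embryo was d12_f_271 and the highest was d12_m_307, 6.25-fold apart.

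GATA3, a zinc finger factor that acts beside CDX2 in the outer cells, is annotated on chromosome 10 at 63367684 to 63397977. Its lowest, median and highest level was 122, 138 and 158 CPM on Day 8, 93.1, 128.9 and 144 CPM on Day 10 and 169, 244.9 and 463 CPM on Day 12. The log2 fold change was -0.18 (SE 0.15, FDR 0.294) from Day 8 to Day 10. GATA3 rose by 1.23 (SE 0.15, FDR 1.76e-08) from Day 10 to Day 12 and by 1.05 (SE 0.15, FDR 2.03e-07) from Day 8 to Day 12, and the Day 12 embryos did not overlap with either earlier day. The rise against Day 8 was close to the fold limit. It was 0.95 without Day 12 embryo d12_f_245, the smallest library, 0.96 without embryo d12_f_271 and 0.92 with the robust GLM, so that GATA3 was then not called. GATA2, the second member of the family, is on chromosome 13 at 71981139 to 71997626 and had a different course. Its lowest, median and highest level was 408, 453.4 and 524 CPM on Day 8, 211, 354 and 409 CPM on Day 10 and 264, 403 and 608 CPM on Day 12. Its log2 fold changes of -0.49 (SE 0.13, FDR 0.00207) from Day 8 to Day 10, 0.38 (SE 0.13, FDR 0.0140) from Day 10 to Day 12 and -0.11 (SE 0.13, FDR 0.436) from Day 8 to Day 12 were under the limits for a DEG.

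TFAP2A and TFAP2C encode AP-2 factors, which bind the same GC-rich element. TFAP2A (chromosome 7, 7221654 to 7244626) was lowest on Day 10, with a lowest, median and highest level of 63.4, 76.4 and 99.8 CPM on Day 8, 35.5, 52.0 and 66.4 CPM on Day 10 and 74.1, 98.7 and 142 CPM on Day 12. The log2 fold change of -0.58 (SE 0.13, FDR 0.000225) from Day 8 to Day 10 passed the FDR limit and missed the fold limit. From Day 10 to Day 12 TFAP2A rose by 1.04 (SE 0.13, FDR 2.13e-08) with no overlap between the days. This call lay close to the fold limit, and without Day 10 embryo d10_m_333 or embryo d10_m_453, or Day 12 embryo d12_f_245 or embryo d12_f_271, the log2 fold change was 0.99, 0.996, 0.99 and 0.98. Day 12 stood 0.46 (SE 0.13, FDR 0.00168) above Day 8 on the log2 scale, which is under the limits. TFAP2C (chromosome 17, 57164400 to 57174923) had medians of 110, 89.98 and 76.8 CPM and ranges of 95.7 to 128, 78.1 to 115 and 53.5 to 163 CPM. Its log2 fold change from Day 10 to Day 12 was 0.0032 (SE 0.14, FDR 0.985) with a 95% interval of -0.28 to 0.29, and those from Day 8 were -0.28 (SE 0.14, FDR 0.105) to Day 10 and -0.27 (SE 0.14, FDR 0.0901) to Day 12.

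ELF3 and ELF5 are ETS factors of epithelia, and ELF5 is a gatekeeper of the trophoblast stem cell in the mouse. ELF3 (chromosome 10, 24237852 to 24242266) had a lowest, median and highest level of 64, 74.1 and 83.3 CPM on Day 8, 109.5, 126 and 151 CPM on Day 10 and 45.9, 88.9 and 169 CPM on Day 12. Every Day 10 embryo was above every Day 8 embryo, and the log2 fold change of 0.80 (SE 0.17, FDR 0.000226) missed only the fold limit. From Day 10 to Day 12 it was -0.30 (SE 0.17, FDR 0.128), and the Day 12 embryos spread over both earlier days. ELF5 (chromosome 2, 26443979 to 26486802) had few reads, 5 to 26 counts a library on Day 8, 14 to 98 on Day 10 and 7 to 60 on Day 12. Its lowest, median and highest level was 0.258, 0.496 and 1.22 CPM on Day 8, 0.791, 1.68 and 5.04 CPM on Day 10 and 0.694, 1.57 and 3.23 CPM on Day 12. ELF5 rose from Day 8 to Day 10 by 1.84 (SE 0.33, FDR 2.32e-05), and 8 of 10 Day 10 embryos were above the highest Day 8 embryo. Day 12 was 1.39 (SE 0.33, FDR 0.000374) above Day 8 on the log2 scale, a call that was lost without Day 12 embryo d12_f_289 (FDR 0.00135), and -0.44 (SE 0.31, FDR 0.225) from Day 10.

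DLX3, a distal-less homeobox factor of the placenta and skin, lies on chromosome 12 at 26177896 to 26183172. Its lowest, median and highest level was 51.2, 54.9 and 56.7 CPM on Day 8, 43.9, 75.0 and 90.7 CPM on Day 10 and 41.5, 72.1 and 115 CPM on Day 12. On Day 10, 9 of 10 embryos were above every Day 8 embryo, and embryo d10_f_433 was below all of them. The log2 fold changes were 0.38 (SE 0.13, FDR 0.0134) from Day 8 to Day 10, 0.12 (SE 0.13, FDR 0.442) from Day 10 to Day 12 and 0.50 (SE 0.13, FDR 0.00101) from Day 8 to Day 12, all below the fold limit.

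Counted by overlap alone, 3 of 10 members (CDX2, ELF3 and HAND1) had all Day 10 embryos beyond all Day 8 embryos, against 22% of all genes. For Day 12 against Day 10 there were 5 (CDX2, GATA3, TFAP2A, KLF5 and HAND1), against 16.6%. For Day 12 against Day 8 there were 3 (GATA3, KLF5 and HAND1), against 31.7%. Scaling by library size alone moved the median of all genes by -0.18 from Day 8 to Day 10, by 0.20 from Day 10 to Day 12 and by 0.02 from Day 8 to Day 12, and left the same number of members called in each direction.

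**Figure D2:**
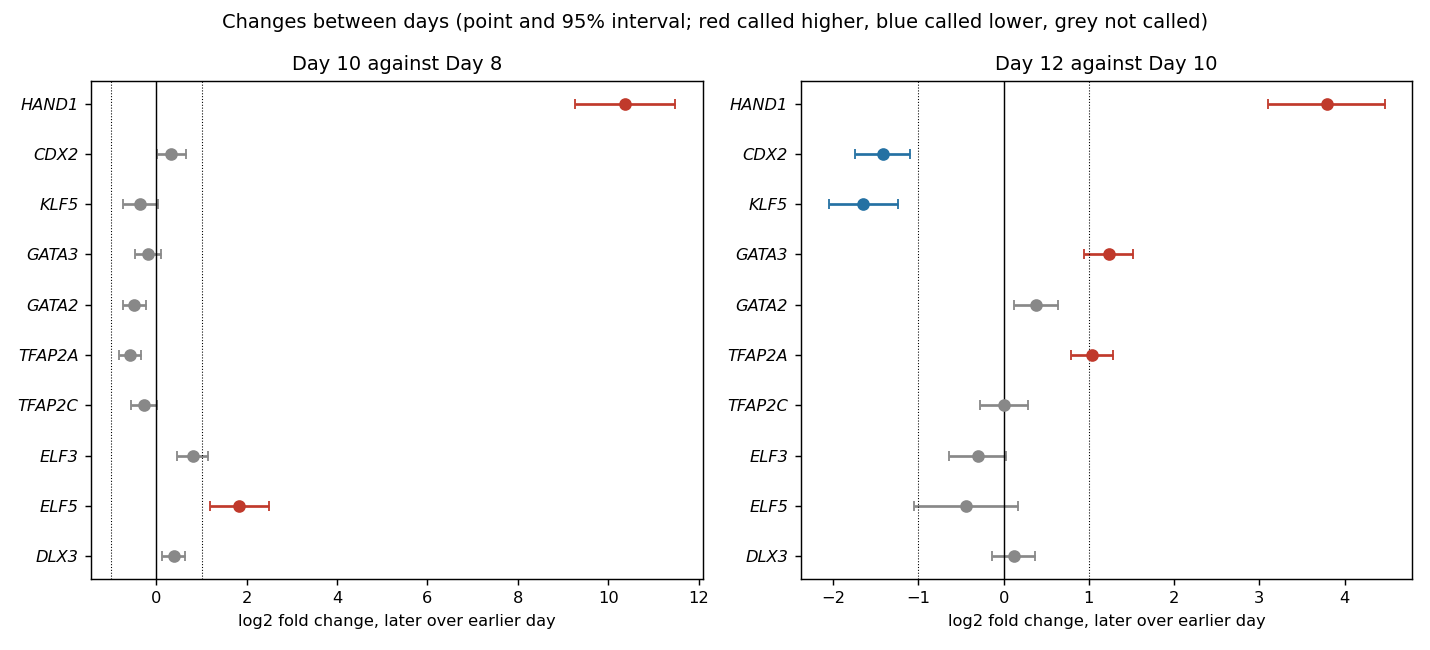
Log2 fold changes of the 10 members from Day 8 to Day 10 (left) and from Day 10 to Day 12 (right), as points with bars for the 95% interval, red where called higher, blue where called lower and grey where not called. The dotted lines mark a log2 fold change of 1 in each direction, HAND1 (10.37 and 3.79) lies farthest to the right in both panels, and CDX2 and KLF5 lie beyond the lower line on the right.

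Reads of 4 members can overlap another annotated gene, and whether the counting used the strand is not given in the sources used here, so such reads cannot be told apart. Within GATA2 lies the long noncoding RNA LOC102160340, which was at 73.5 ± 6.90, 58.3 ± 14.3 and 147 ± 57.9 CPM (SD, n = 10) on Days 8, 10 and 12. Within TFAP2A lies LOC106504315, at 2.05, 1.53 and 2.77 CPM. The long noncoding RNA LOC106509379 overlaps ELF5 and had 4.600, 4.52 and 4.87 CPM. Over the 30 embryos the Pearson r of log2 CPM with the member was 0.53 for the gene in GATA2, 0.64 for that in TFAP2A and -0.21 for that overlapping ELF5. HAND1 lies inside LOC110257270, which is not in the table.

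The distance between embryos of the same day differed between the members and the days. Leaving aside HAND1 and ELF5, the ratio of the highest to the lowest embryo ran over the other 8 members from 1.11 (DLX3) to 1.57 (TFAP2A) on Day 8, from 1.30 (CDX2) to 2.06 (DLX3) on Day 10 and from 1.91 (TFAP2A) to 6.25 (KLF5) on Day 12. The SD of log2 CPM of DLX3 on Day 8 was 0.0429, at the 0.427th percentile of all genes. That of CDX2 was 0.0931, 0.122 and 0.597 on Days 8, 10 and 12, at the 6.75th, 7.61st and 67.3rd percentile. ELF3 moved in the same manner, from the 9.04th and 14th percentile to the 74.8th. KLF5 had an SD of 0.820 on Day 12, at the 82.7th percentile. TFAP2A (29.3rd percentile), GATA2 (44.1st) and DLX3 (46.7th) stayed below the median of all genes on Day 12, and the SD of TFAP2A was 0.327 on Day 10 and 0.320 on Day 12. The median SD of all genes also widened, from 0.227 to 0.286 and 0.453.

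The members were paired within each day by the Pearson correlation of log2 CPM over the 10 embryos, which is given as a description, since the embryos of a day share the scaling, the gilts and the composition of the embryo. On Day 8, 3 of 45 pairs had an r above 0.6 and 1 had an r below -0.6. HAND1 was in 2 of the 3, with ELF3 and GATA3, and rests there on almost no reads beside those of d08_m_133. Of the 36 pairs without HAND1, 1 was above 0.6 and 1 below -0.6 on Day 8. On Day 10 there were 12 and 7, and on Day 12 there were 20 and 8. Over all pairs of genes in the table, 5.61% were above 0.6 and 5.43% below -0.6 on Day 8, 10.7% and 10.6% on Day 10, and 14.6% and 13.8% on Day 12. With scaling by library size alone, an alternative chosen after seeing the data, the member pairs were 4 and 0, 16 and 10, and 17 and 6, and no pair beyond 0.6 changed its sign.

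**Figure D3:**
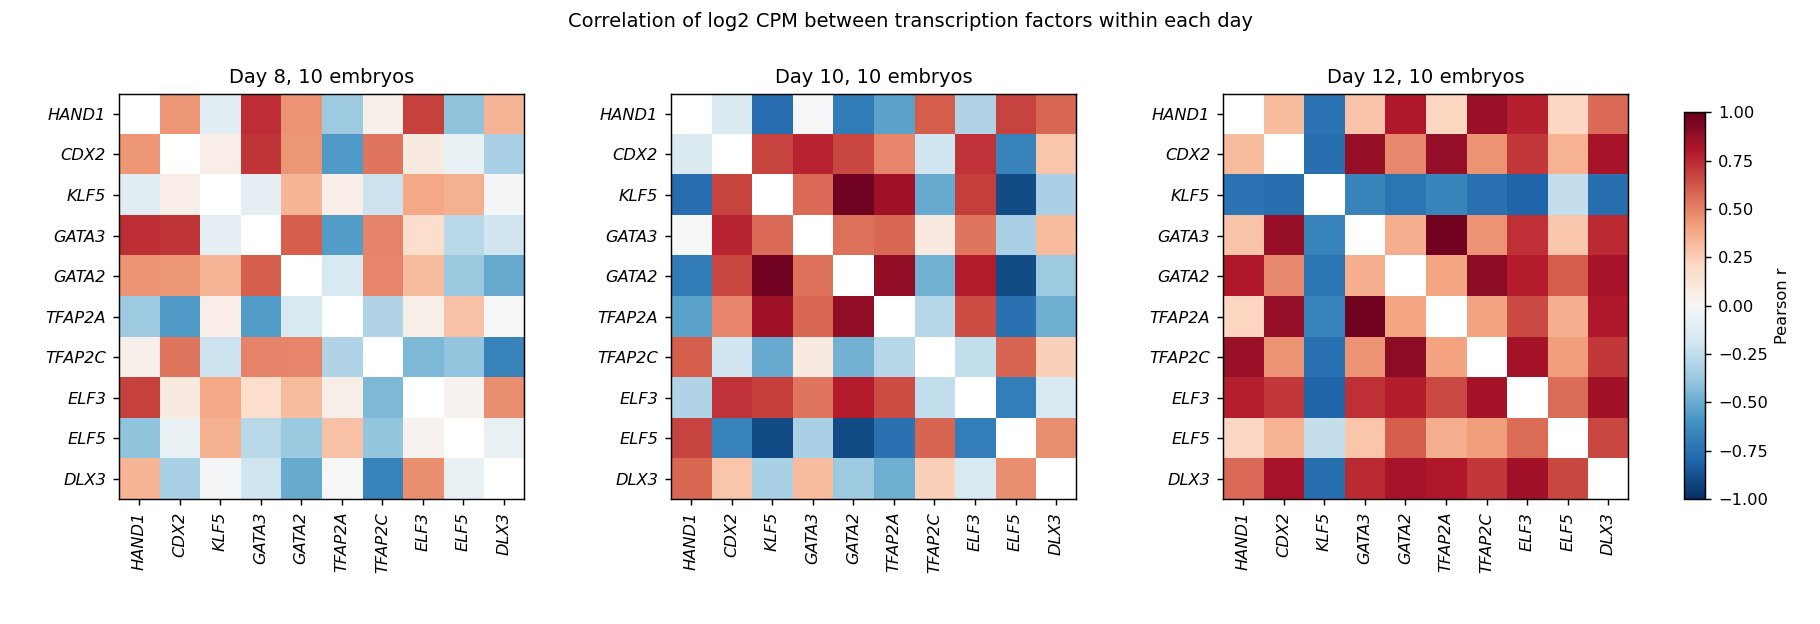
Pearson correlations of log2 CPM between all pairs of members over the 10 embryos of each day, coloured from -1 to 1. On Day 12 the KLF5 row and column is negative throughout while most other pairs are positive, on Day 10 GATA2, TFAP2A and KLF5 are positively related to each other and negatively to ELF5, and the HAND1 row of Day 8 rests on almost no reads.

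The sign of the KLF5 correlations was not the same on Day 10 and Day 12. With GATA2 its r was 0.34, 0.97 and -0.73 on Days 8, 10 and 12, and with TFAP2A it was 0.07, 0.85 and -0.66. On Day 12 it was negative with 9 of 9 partners, from -0.80 to -0.24, and on Day 10 it was positive with 5 and negative with 4, down to -0.89 with ELF5. KLF5 and HAND1 had an r of -0.76 on Day 10 and -0.74 on Day 12. CDX2 and GATA3, in contrast, had a positive r on each day, of 0.72, 0.76 and 0.87. GATA3 and TFAP2A had an r of -0.56, 0.58 and 0.97, and GATA2 and TFAP2C one of 0.90 on Day 12.

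**Figure D4:**
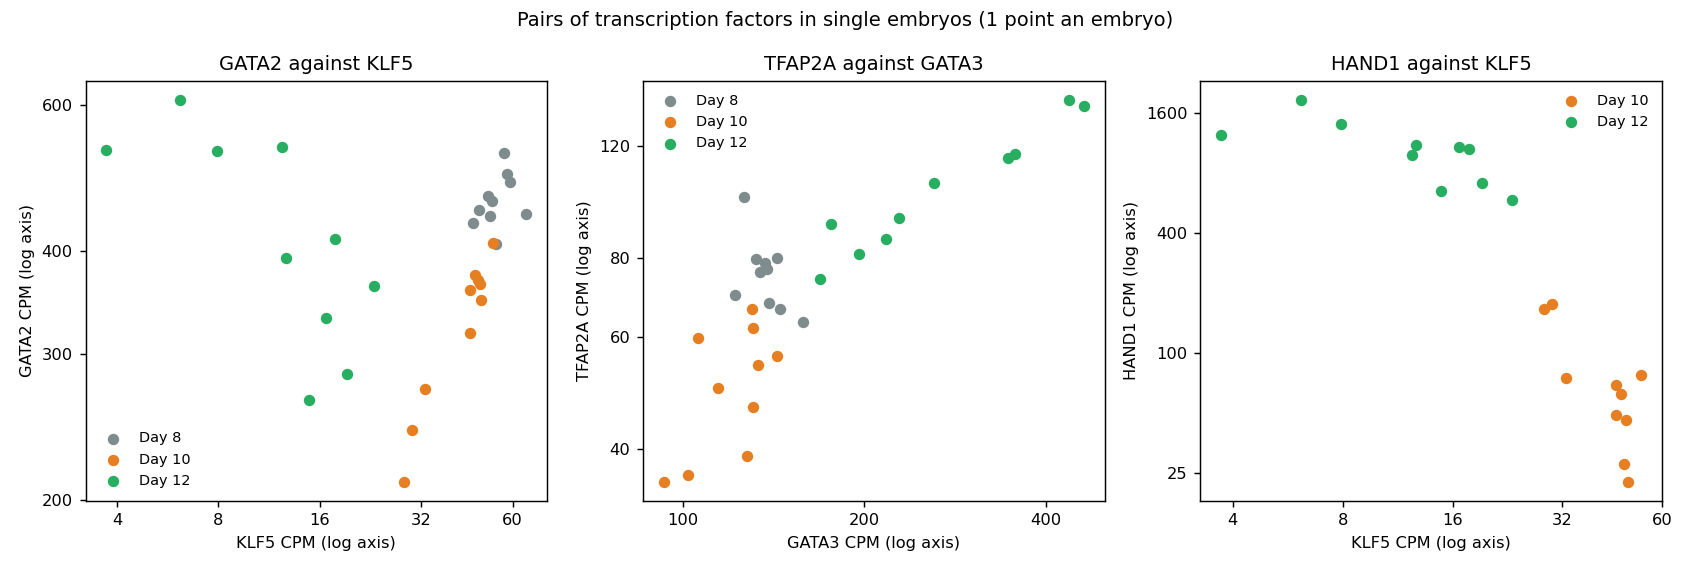
Levels in CPM on log axes of GATA2 against KLF5, TFAP2A against GATA3 and HAND1 against KLF5, with 1 point an embryo coloured by day and Day 8 left out for HAND1. KLF5 and GATA2 vary in the same direction over the Day 10 embryos (r = 0.97) and in opposite directions over the Day 12 embryos (r = -0.73).

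The embryos at the ends of these ranges were often the same. On Day 10, embryo d10_f_454, embryo d10_m_333 and embryo d10_m_453 were the lowest 3 embryos in GATA2 (243, 273 and 211 CPM), in KLF5 (30.04, 32.8 and 28.5 CPM) and in TFAP2A (38.9, 35.5 and 36.4 CPM). The same embryos were the highest in ELF5 (5.04, 2.52 and 3.40 CPM). They also had the highest summed hypoblast markers of the day (2327, 2096 and 2030 CPM, against 1217 to 1781 CPM in the others), and embryo d10_m_453 and embryo d10_m_333 were the deepest libraries of that day. On Day 12, embryo d12_f_271, embryo d12_m_276 and embryo d12_m_286 were the lowest in KLF5 (3.72, 6.15 and 7.91 CPM) and the highest in HAND1 (1239, 1852 and 1404 CPM). Their summed mesoderm markers were the lowest of the day (48.9, 37.1 and 49.0 CPM). Embryo d12_m_276 was also the highest in GATA2 (608 CPM) and in TFAP2C (163 CPM).

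Within days, the scaling factor and the marker sums moved with some members. HAND1 had an r of -0.98 on Day 10 and -0.88 on Day 12 with the TMM factor of the library, and on Day 12 the r was -0.90 for GATA2, -0.93 for TFAP2C and 0.84 for KLF5. DLX3 followed the summed trophectoderm genes (r = 0.86 on Day 10 and 0.95 on Day 12). This was not particular to DLX3 on Day 12. The other members then had an r with that sum from 0.49 (HAND1) to 0.90 (CDX2), except KLF5 with -0.81. On Day 10 HAND1 had an r of 0.71 (trophectoderm), 0.85 (hypoblast), 0.74 (epiblast) and 0.73 (mesoderm) with the marker sums. On Day 12 the r of GATA2 with the same sums, in this order, was 0.77, -0.80, 0.41 and -0.91. On Day 10, GATA2, GATA3 and TFAP2A had an r of -0.82, -0.71 and -0.83 with the log2 library total. The part of these in the correlations was not tested.

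Female and male embryos were compared within each day, with a DEG called at an FDR under 0.05 in the table of that day. HAND1 and ELF5 are not in the Day 8 table. No member was a DEG, 0 of 8 on Day 8 and 0 of 10 on each later day, with edgeR and equally with DESeq2, and none had an unadjusted p under 0.05. Of all genes 0.658%, 0.223% and 0.123% were called, and 4.59%, 2.36% and 22.7% had an unadjusted p under 0.05. The log2 fold changes, female over male, were -0.05 to 0.15 (SE 0.0607 to 0.117) on Day 8, 0.03 to 0.18 (SE 0.0897 to 0.552) on Day 10 and -0.28 to 0.68 (SE 0.199 to 0.438) on Day 12. The SE sets the size of a sex difference that these 5 and 5 embryos could show. The highest were those of HAND1 (0.552) and ELF5 (0.495) on Day 10.

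CDX2 had the lowest unadjusted p of the members on Day 12. Female embryos had 97.2 ± 53.1 CPM and male embryos 62.6 ± 15.3 CPM (SD, 5 of each sex), with a log2 fold change of 0.68 (SE 0.33, FDR 0.237). The ranges overlapped, and the log2 fold change ran from 0.29 to 0.83 as single embryos were left out. In a fit of all 30 embryos in 6 groups it was 0.63 (SE 0.21, FDR 0.0347, edgeR), a call that the day's own table did not give. That fit shares the dispersion of a gene over the 3 days. GATA3 was at 334 ± 123 and 236 ± 72.4 CPM, with a log2 fold change of 0.55 (SE 0.29, FDR 0.267). The test of whether a sex difference itself changed between days called 0 of 10 members in each of 3 comparisons, as did DESeq2, and 0% of all genes. CDX2 on Day 12 against Day 8 was the 1 member with an unadjusted p under 0.05 (difference 0.62, SE 0.30, adjusted p = 0.221, edgeR quasi-likelihood test).

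Of 33 listed relatives in the same transcription factor families, 27 were in the table. From Day 8 to Day 10, 2 rose (ETS2 and KLF6) and 5 fell, against 9.88% and 4.2% of all genes, with a median log2 fold change of 0.17. It was 0.0066 with GATA1, at the floor on both days, left out and GATA5, at the floor on Day 8, set at its lower bound. That bound counts GATA5 as lower on Day 10, although its fitted log2 fold change was 2.26. From Day 10 to Day 12, 9 rose and 2 fell, against 14.9% and 8.39% of all genes, with a median of 0.68. KLF6 went from 39.6 ± 5.63 to 88.0 ± 14.2 CPM by Day 10 (log2 fold change 1.15, SE 0.14, FDR 3.63e-08), while its relative KLF5 did not pass. ETS2, which has a role in trophoblast gene expression in ungulates, rose from 25.7 to 58.2 CPM (1.18, SE 0.17, FDR 5.86e-07) and fell to 24.8 CPM on Day 12 (-1.23, SE 0.17, FDR 1.72e-07). With scaling by library size alone, the Day 10 rises of ETS2 and KLF6 were 0.97 and 0.96, and the Day 12 fall of ETS2 was -0.9998, all short of the fold limit. The Day 10 rise of ETS2 also missed it with the robust GLM (0.987).

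DLX relatives were among the largest changes of the list, while DLX3 did not meet the limits. DLX6 fell from 4.14 to 1.33 CPM (-1.63, SE 0.22, FDR 2.19e-07) and DLX5 from 14.6 to 4.77 CPM (-1.61, SE 0.19, FDR 3.43e-08) between Days 8 and 10. By Day 12 both had risen again, DLX6 to 9.40 CPM (2.81, SE 0.22, FDR 2.52e-12) and DLX5 to 16.9 CPM (1.83, SE 0.19, FDR 1.50e-09). DLX1 rose from 0.217 to 14.1 CPM between Days 10 and 12 (5.98, SE 0.35, FDR 2.96e-15). GATA1, the blood relative of the GATA members, had 3 counts in all over the Day 10 embryos and a mean of 1.44 CPM on Day 12, at least 8.51-fold above the level that 3 counts give in the shallowest Day 10 library. KLF15 fell from 3.74 to 0.9998 CPM between Days 10 and 12 (-2.01, SE 0.37, FDR 2.50e-05).

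Of 34 transcription factors and cofactors used beside the members in trophoblast, 33 were in the table. From Day 8 to Day 10, 5 rose and 4 fell (median 0.25), and from Day 10 to Day 12, 12 rose and 9 fell (median 0.23). Of all genes 9.88% were higher and 4.2% lower in the first interval, and 14.9% and 8.39% in the second. GRHL3, a grainyhead factor of epithelial barriers, rose from 0.636 ± 0.242 to 14.9 ± 17.9 CPM by Day 10 (4.53, SE 0.59, FDR 1.65e-07), and VGLL3, a cofactor of TEAD proteins, from 14.5 ± 2.67 to 248 ± 132.7 CPM (4.09, SE 0.31, FDR 3.31e-12). By Day 12 both had fallen, GRHL3 to 1.38 CPM (-3.44, SE 0.56, FDR 3.43e-06) and VGLL3 to 65.9 CPM (-1.91, SE 0.28, FDR 7.75e-07). TBX3, a T-box repressor, fell from 204 ± 14.8 CPM on Day 8 to 28.9 ± 14.4 CPM on Day 10 (-2.82, SE 0.23, FDR 1.54e-11). ESRRB, an orphan nuclear receptor of early stem cells, fell in both intervals, from 348 to 70.8 CPM (-2.30, SE 0.30, FDR 1.62e-07) and on to 0.225 CPM on Day 12 (-8.22, SE 0.44, FDR 3.58e-16). EOMES, a T-box factor of mouse trophoblast stem cells, was at 2.64 CPM on Day 10 and at 2 counts or fewer in every Day 12 embryo, at least 6.09-fold lower than the Day 10 mean. TP63, a factor of stratified and basal epithelia, rose from 0.624 ± 0.444 to 78.6 ± 34.9 CPM (6.95, SE 0.36, FDR 1.31e-16) and PPARG, a nuclear receptor of placental lipid metabolism, from 6.24 ± 5.56 to 71.6 ± 17.6 CPM (3.51, SE 0.38, FDR 2.18e-09) between Days 10 and 12.

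Among 31 epithelial, transport and steroid genes that the trophectoderm uses, 29 were in the table. From Day 8 to Day 10, 7 rose and none fell (median 0.47, or 0.48 with the floor genes at their bound or left out), and from Day 10 to Day 12, 4 rose and 10 fell (median -0.15). The shares of all genes were 9.88% higher and 4.2% lower, and then 14.9% and 8.39%. CYP19A1 and CYP17A1, enzymes of oestrogen synthesis, were highest on Day 10. CYP17A1 went from 0.702 to 5433 CPM (12.89, SE 0.70, FDR 1.99e-15) and back to 92.0 CPM on Day 12 (-5.88, SE 0.52, FDR 2.72e-11). CYP19A1 had 2 counts in all on Day 8 and 1854 ± 1333 CPM on Day 10, at least 9556-fold higher, and fell to 45.2 CPM on Day 12 (-5.35, SE 0.51, FDR 1.65e-10). PLET1, a trophoblast surface protein, rose from 9.50 ± 5.26 to 11273 ± 5276 CPM between Days 10 and 12 (10.22, SE 0.66, FDR 2.55e-14). HSD3B1, a steroid dehydrogenase, had no read in any Day 10 embryo and a mean of 5.45 CPM on Day 12, at least 32.2-fold higher.

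**Figure D5:**
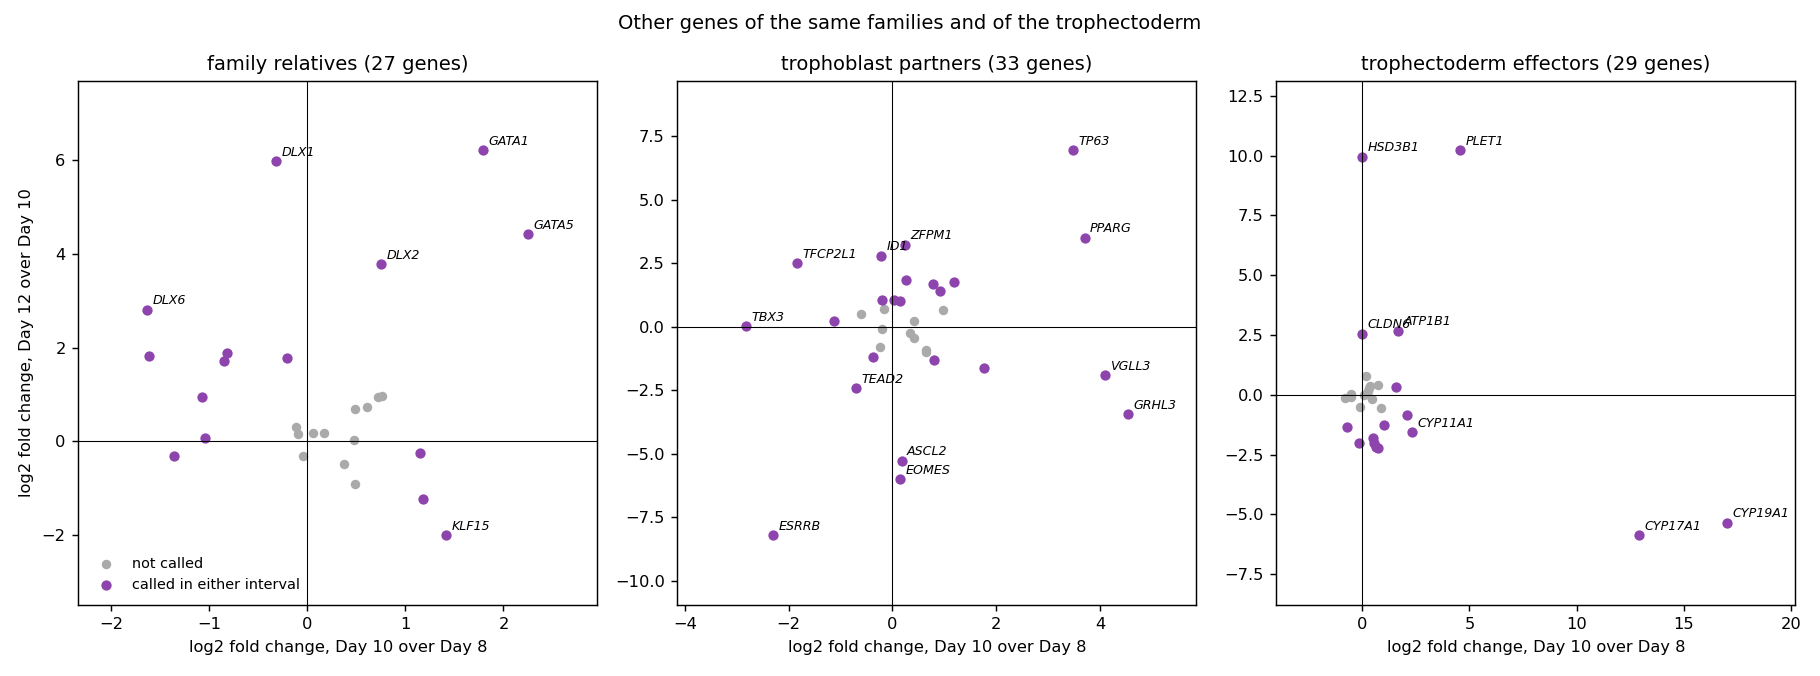
Log2 fold change from Day 8 to Day 10 (horizontal) against that from Day 10 to Day 12 (vertical) for family relatives, trophoblast partners and trophectoderm genes, with purple points for DEG in either interval. Both axes use the Day 10 embryos, so points tend to the lower right and upper left where Day 10 stands out, as CYP17A1 and CYP19A1 do, and fitted values of genes with almost no reads on 1 day depend on the added count.

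The courses most like those of the called members were searched over all 13103 genes by the Pearson correlation of log2 CPM across the 30 embryos, which share the change between days. HAND1 was followed most closely by WNT4 (r = 0.99), a secreted signalling protein that was at a mean of 0.0070 CPM on Day 8, 9.21 CPM on Day 10 and 122 CPM on Day 12, and then by CCDC85C and PLEKHA7 (both 0.98). KLF5 was followed by NCOA7 (0.97), EZR (0.96), which links the membrane to actin in microvilli, and DEPDC7 (0.95). CDX2 was followed by NDUFB8 (0.96), LGALS4 and TMEM79 (both 0.95). GATA3 was followed by CXXC5 (0.96), SSR2 and CCDC85B (both 0.95). For TFAP2A the genes were DLX6 (0.91), FAM118A (0.905) and IRF2BP2 (0.89), and for ELF5 they were NICN1 (0.88), GADD45A and CHCHD2 (both 0.87). Of these genes, DLX6 also stands in the list of family relatives.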

How the data were processed

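RNA of 30 single pig embryos was sequenced from stranded mRNA libraries. The authors used Trim Galore on the reads, took 3 bases off the 5′ end and mapped the reads on a Galaxy server to Sscrofa11.1 with its NCBI annotation. Genes with low CPM were then dropped. Which aligner, counter and CPM limit were used is not given in the sources used here. The deposited values are raw counts per NCBI gene identifier in 4 tables, 1 of all embryos and 1 of each day. A gene missing from a table was not analysed for it. Symbols and positions came from the RefSeq gene table of Sscrofa11.1, which matched all 13103 identifiers of the table of all embryos.

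Counts were tested with the quasi-likelihood F test of edgeR 4.0.16 (robust dispersion, TMM factors, Benjamini-Hochberg adjustment over all genes) in R 4.3.3. Days were compared in 1 fit of 3 day groups, with calls at a log2 fold change beyond 1 and an FDR under 0.001. The dispersion of a gene was shared over the 3 days, so the spread on each day enters the SE of every day comparison. Sexes were compared in the table of their day at an FDR under 0.05, and their interaction with day in a fit of 6 groups. The SE is the log2 fold change over the square root of F, and intervals are 1.96 SE. Levels are CPM, log2 levels use a prior count of 2, and 3 counts were taken as the floor of detection, which is 0.0823 to 0.434 CPM. Lower bounds were set against the floor of the shallowest library of the day.

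Counts were simulated with 200 changed genes of a mean above 1 CPM and fitted with only the 2 days, or the 2 sexes, compared. At 4-fold 97.5% of the changes between Days 10 and 8 and 87.0% between Days 12 and 10 were recovered, with 0 false calls. Between sexes at 2-fold it was 79.0%, 69.0% and 35.5% on Days 8, 10 and 12, with 6, 4 and 7 false calls. The simulated embryos were independent, so shared litters and genes with almost no reads were not covered. Alternatives were DESeq2 1.42.0, the robust GLM of edgeR, RLE factors, library size alone, a mean of at least 1 CPM, at least 10 counts in 5 embryos, fits with sex as a covariate or with only the 2 days compared, testing against a minimum log2 fold change of 1, an FDR of 0.05 with no fold limit, and leaving out each embryo.

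The members, the lists of other genes and the markers were chosen with earlier results of these data known. All members are named, and from each list the 2 largest rises and falls among the DEG of an interval. For each member called in an interval, the 3 most correlated genes are named. The embryos are separate animals of the labelled groups.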

Additional observations from a re-analysis of the deposited data

Results flagged for a closer look

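Single embryos were looked for that lay far from the others of their day, or of their day and sex, by Dixon's test at 95%. Of 90 groups tested 6 had such an embryo. The nominal chance rate of about 1 in 20 groups does not hold here. The groups by sex overlap those by day, and HAND1 was at 0 in most Day 8 embryos. HAND1 on Day 8 was at 0.464 CPM in embryo d08_m_133, against 0 to 0.129 CPM in the other embryos, and among the Day 8 females at 0.0309 CPM in embryo d08_f_124, a single read, against 0 in the others. TFAP2A on Day 8 was at 99.8 CPM in embryo d08_m_103, against 63.4 to 79.9 CPM, and among the Day 8 females it was low in embryo d08_f_109, at 67.9 CPM against 76.0 to 79.5 CPM. KLF5 was low in a female embryo on both later days. On Day 10 it was at 30.04 CPM in embryo d10_f_454, against 44.7 to 52.4 CPM in the other females, and embryo d10_m_333 and embryo d10_m_453 were as low (32.8 and 28.5 CPM). On Day 12 it was at 3.72 CPM in embryo d12_f_271, against 12.4 to 16.7 CPM, and that embryo also had the highest CDX2 of the day (186 CPM).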

How the results depend on the processing

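With the robust GLM 2 members in place of 3 were called higher on Day 12 than on Day 8. The number of members called between days did not move with DESeq2, RLE factors, library size alone, both filters on low counts, sex as a term and 2 days in the fit. Tested against a log2 fold change of 1, 1 member (HAND1) was called higher on Day 10 than on Day 8, Day 12 against Day 10 gave 1 higher and 0 lower, and Day 12 against Day 8 gave 1 higher and 1 lower. The share of all genes called by that test was not counted. At an FDR under 0.05 with no fold limit, Day 10 against Day 8 gave 4 higher and 2 lower, and Day 12 against Day 8 gave 6 higher. Of all genes 56.1% and 73.3% passed that FDR in either direction. Leaving out single embryos, the members called higher on Day 12 were 2 to 3 against both earlier days, and the other counts stayed at their value. The difference of TFAP2C between Days 12 and 10, which is near 0, turned to -0.13 with the robust GLM, -0.0018 with DESeq2, -0.0019 with RLE factors and -0.017 with 2 days in the fit, and ran from -0.13 to 0.068 without single embryos. Between the sexes on Day 12, 1 member (CDX2) was called with all embryos in 6 groups. Its SE was 0.21 in that fit, which shares the dispersion over the days, and 0.33 in the fit of Day 12 alone. The cause of the call was not tested. No paired analysis was possible because the embryo numbers in the labels are not shared between groups and the labels do not tie an embryo to its gilt, although female and male embryos share litters by the study's methods. ELF5 had few reads on all days and HAND1 almost none on Day 8, and the part of depth was not tested.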
